A study of Mus musculus with 4 samples.

Results

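The Errfi1 small RNA cluster was the set of distinct small RNA sequences whose single best placement on the mouse genome (NCBIM37, at most 1 mismatch) lay in the annotated 3' UTR of Errfi1 or in the stretch downstream of it. It held 173 of the 7845 distinct sequences listed for 4 libraries, with 157 of 4273 in WT liver, 16 of 560 in Miwi2-/- liver, 0 of 2634 in WT spleen and 0 of 378 in Miwi2-/- spleen. Members were chosen by their placement, and Errfi1 was chosen by the measured number of its WT liver sequences, so counts and positions are given as descriptions. Small RNA was taken from the liver and spleen of 1 WT mouse and 1 Miwi2-/- mouse, adult animals on the C57BL/6 strain, with 1 library for each tissue and genotype. The Miwi2-/- mouse lacks a functional gene for MIWI2 (Piwil4), a Piwi protein best known from fetal male germ cells, and the WT mouse carries it. Piwil4 itself had no cluster, so the lists hold no check of the deletion. With 1 mouse per genotype, genotype, animal and library cannot be told apart, and no difference between libraries has a replicate check. Each list names distinct sequences without read counts, so a value says how many different sequences were listed and not how abundant each was.

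Errfi1, also called Mig-6 or RALT, encodes a cytoplasmic adaptor that binds the kinase domain of EGFR and the other ErbB receptors and lowers their activity. Its mRNA is induced soon after growth factor or stress signals, so the protein acts as a feedback inhibitor, and in the liver it is known as a brake on EGFR signalling in hepatocytes. The 3' UTR is the untranslated end of the mRNA, where proteins and small RNAs bind and where the poly(A) tail is added.

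On NCBIM37, the longer annotated Errfi1 3' UTR (GENCODE M1, stop codon included) covers chr4:150241609-150243001 on the plus strand, 1393 nt, and a second transcript ends at 150242996. The cluster region listed for WT liver runs from 150241612 to 150249745, a length of 8134 nt, rank 11 of 488 liver regions. The downstream stretch has 6744 nt and makes up 82.9% of the region. No gene of GENCODE M1 overlaps it, and the next gene, Park7 on the minus strand, lies 21497 nt after the region. Positions below are counted from 1 at the first base of the stop codon, so the annotated 3' UTR ends at position 1393 and the region at position 8137.

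The sequences that share a 5' end between the 2 liver libraries are shown first, 5' to 3' as listed, all on the plus strand of NCBIM37. A single sequence was listed in both libraries, without a mismatch, at chr4:150241941-150241963 (positions 333 to 355). A pair began exactly at the stop codon (capitals), at chr4:150241609-150241635 in WT and chr4:150241609-150241627 in Miwi2-/- liver. Other pairs began at the same base, chr4:150241665 and chr4:150241686, with different 3' ends, and capitals there mark a base that does not match the genome.
both liver libraries: tgtattcagaacaattcaaacaa
stop codon, WT liver: TAAatatgggggtcatgattcaacaga
stop codon, Miwi2-/- liver: TAAatatgggggtcatgat
start at position 57, WT liver: tccagtttgaggttcgtagaacaa
start at position 57, Miwi2-/- liver: tccagtttgaggttcgtagaacaatC
start at position 78, WT liver: caatgtcaagtggcaaaatgaagtA
start at position 78, Miwi2-/- liver: caatgtcaagtggcaaaatgaa

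The next sequences show the make-up of the WT liver cluster downstream of the annotated 3' UTR. A trio with different 5' ends shared the last base, at position 2562, which was the most used 3' end (chr4:150244143-150244170, chr4:150244145-150244170 and chr4:150244148-150244170). A group of 5 overlapping sequences at positions 2582 to 2624, the downstream stretch of highest coverage, ended each time in an A that the genome does not have there, and 4 of them lie within chr4:150244192-150244232. In a group of 4 at positions 1509 to 1542, 3 had no mismatch, and the 3 printed lie within chr4:150243117-150243149. Sequences over 30 nt in these groups are not printed. The only Miwi2-/- liver sequences of the downstream stretch lay at chr4:150245675-150245701 and chr4:150247675-150247700. Capitals mark the mismatched base.
positions 2535 to 2562: cagagttgttaggatgacaggctccaTc
positions 2537 to 2562: gagttgttaggatgacaggctccaTc
positions 2540 to 2562: ttgttaggatgacaggctccaTc
positions 2584 to 2607: cttcttccagaacggcggtggctA
positions 2586 to 2612: tcttccagaacggcggtggctcttgcA
positions 2594 to 2623: aacggcggtggctcttgcgagctggaaccA
positions 2599 to 2624: cggtggctcttgcgagctggaaccgA
positions 1509 to 1532: acaatttgagcaacttgacttggA
positions 1514 to 1540: ttgagcaacttgacttgggtattataa
positions 1514 to 1541: ttgagcaacttgacttgggtattataaa
Miwi2-/- liver, positions 4067 to 4093: ctgtagcaattacccacagggatccgA
Miwi2-/- liver, positions 6067 to 6092: atccaatgaatagccctgctaaagaA

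Errfi1 had the second largest number of distinct sequences among the WT liver clusters. Its 157 sequences were 3.67% of the list (Wilson 95% interval 3.15% to 4.28%), between Vmp1 with 217, whose 3' end overlaps the miR-21 gene, and Scd1 with 137, the gene of a fatty acid desaturase. In Miwi2-/- liver the 16 Errfi1 sequences were 2.86% of the list (1.77% to 4.59%), so the 2 intervals overlap. Per 1000 uniquely aligned distinct sequences of the whole library, the number was 2.43 in WT and 1.20 in Miwi2-/- liver. These rates are set side by side only, since cluster regions were drawn from the WT libraries. Intervals cover counting error only, and sequences that overlap share their source. In whole tissue the number of cells with Errfi1 RNA and the amount per cell cannot be told apart.

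The Miwi2-/- liver list was the shorter, with 560 against 4273 sequences. Its library was also the smaller, with 13288 uniquely aligned distinct sequences against 64572 in WT liver. For every 100 WT liver sequences Errfi1 had 10.2 in Miwi2-/- liver, rank 16 from the lowest of the 34 clusters with at least 20 WT sequences. The median of those clusters was 10.8, the highest was Vmp1 with 44.2, and 4 clusters had none. Scd1 had 34 sequences in Miwi2-/- liver and Alb, the gene of serum albumin, had 10 against 100 in WT. Errfi1 and these clusters were chosen by their WT liver numbers, so the ratios are given as a description.

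The spleen lists held no Errfi1 sequence, and none of the 345 spleen cluster regions overlapped the Errfi1 region. Lists were restricted to clusters of their own tissue, so the 0 in spleen says only that Errfi1 was not among the spleen clusters. Of 8 hepatocyte marker genes, 4 had a liver cluster and none a spleen cluster, where 2.22% of 21896 protein-coding genes had a liver and 1.57% a spleen cluster. They were Alb, Ahsg with 22 WT sequences, the transcription factor Hnf4a with 22, and Apob, while Apoa1, Ttr, Trf and Cps1 had none. No cluster was listed in either tissue for the 8 chosen markers of blood and lymphoid cells, nor for the 5 markers of other liver cells.

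The WT liver sequences were spread along the whole region and thinned out with distance from the coding sequence. The annotated 3' UTR held 70 sequences and the downstream stretch 87, that is 50.3 and 12.9 per kb, a ratio of 3.90. The first 3 downstream kilobases held 23, 16 and 18 sequences, the next ones 10, 10 and 6, and the last 744 nt held 4. Cluster regions were extended as long as small RNAs were found, and the last WT sequence sets the end of the region at position 8137. In Miwi2-/- liver 14 sequences lay in the annotated 3' UTR (10.1 per kb) and 2 downstream (0.297 per kb).

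**Figure D1:**
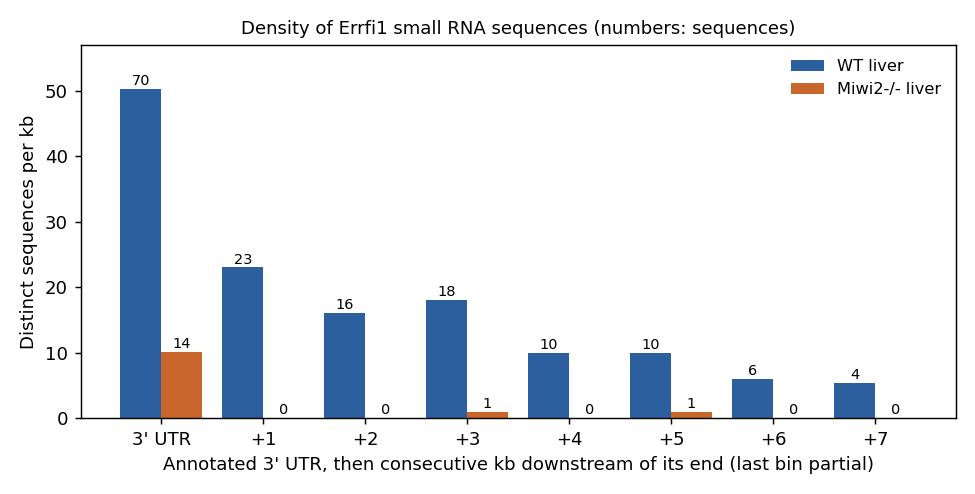
Distinct Errfi1 sequences per kb (vertical axis) in the annotated 3' UTR and in consecutive kilobases downstream of its end, the last of 744 nt, for WT liver (blue) and Miwi2-/- liver (orange), with the number of sequences above each bar. WT liver falls from 50.3 per kb in the 3' UTR to 23 in the first downstream kilobase and 5.38 in the last stretch, and Miwi2-/- liver has single sequences in the bins labelled +3 and +5.

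The share of sequences downstream of the annotated 3' UTR was high for a liver cluster. It was 55.4% in WT liver (87 of 157, 47.6% to 63.0%), against 549 of 4090, or 13.4% (12.4% to 14.5%), over the other 484 clusters. The number of 87 was the highest of the 34 larger clusters, ahead of, among others, Ppara with 55 of 67, Alb with 16 of 100 and Noct with 15 of 21. The Errfi1 downstream stretch was at rank 3 by length of the 34, after a longest of 8003 nt, so length and number rank together here. In Miwi2-/- liver 12.5% of the Errfi1 sequences were downstream (2 of 16, 3.50% to 36.0%), against 6.51% (4.71% to 8.91%) over the other clusters. The downstream stretch reaches only as far as WT sequences extended it, so the shares of the 2 genotypes are set side by side without a comparison.

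At single-base resolution the WT sequences formed many short, overlapping groups. They occupied 157 different placements with 151 different 5' ends, and no 5' end was used by more than 2 sequences. A total of 6 were used more than once, and the 3' ends also numbered 151, with at most 3 sequences at the same base. Among the 34 larger clusters Errfi1 had the lowest share at its most used 5' end, 1.27%, beside 2.19% in Scd1, a median of 5.80% and 90.8% in Vmp1. The least value this share can take falls as a cluster grows, and the share of different 5' ends, 96.2%, was at rank 14 from the highest.

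**Figure D2:**
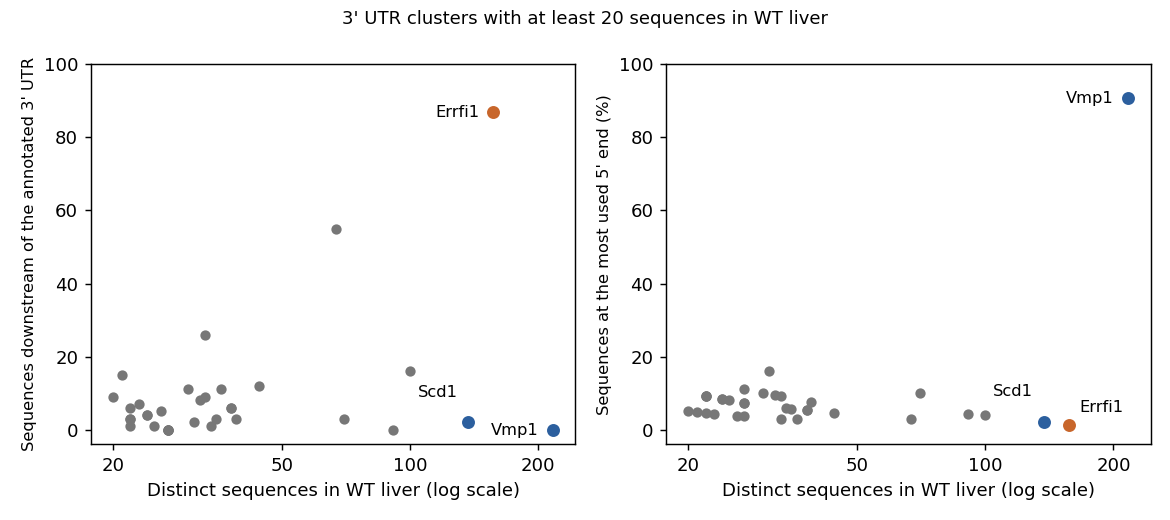
The 34 WT liver clusters with at least 20 distinct sequences, by their number of sequences (horizontal, log scale), with the number downstream of the annotated 3' UTR (left) and the percent at the most used 5' end (right). Errfi1 (orange) stands at 87 downstream sequences and 1.27%, while Vmp1 (blue) stands at 0 and 90.8%.

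No stretch reached the coverage of 10 overlapping sequences that defined a hot spot. The highest coverage was 7 sequences in the annotated 3' UTR and 5 downstream. With a minimum of 5, 7 runs of bases qualified, 68 bases in all. They lay within positions 328 to 347, 1235 to 1261 and 1366 to 1382 of the annotated 3' UTR, and at 2599 to 2607 downstream, where the 4 printed sequences with mismatched last A's meet. The sequence listed in both libraries, printed above, lay across the first of these peaks.

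Joining overlapping sequences gave 71 groups in WT liver, of which 38 held a single sequence. The largest, at positions 266 to 363, held 11 sequences, followed by 8 at positions 1219 to 1283. Groups of 6 lay at positions 57 to 140, 1347 to 1391 and 1879 to 1967. WT sequences covered 60.2% of the bases of the annotated 3' UTR and 24.0% of the downstream stretch. The longest uncovered stretches were 164 nt from position 434 to 597 in the 3' UTR and 609 nt from position 7111 to 7719 downstream.

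**Figure D3:**
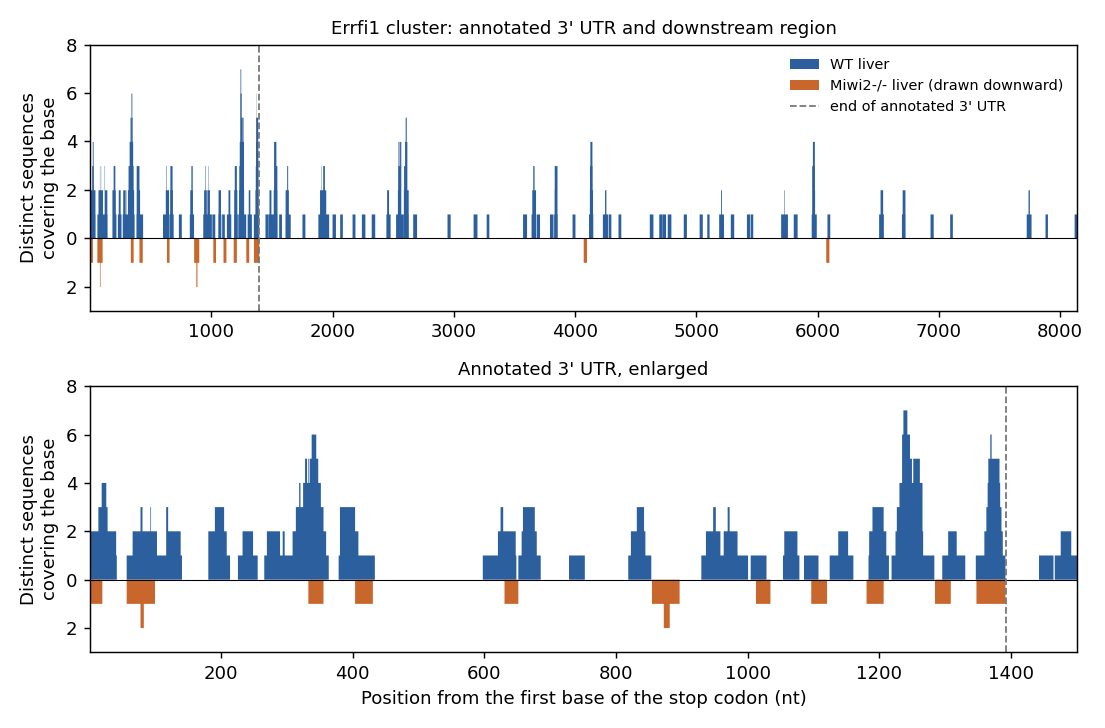
Number of distinct sequences covering each base, by position from the first base of the stop codon in nt, for the whole region (top) and the annotated 3' UTR enlarged (bottom), with WT liver drawn upward (blue), Miwi2-/- liver downward (orange) and the annotated end as a dashed line. WT coverage peaks at 7 in the 3' UTR and at 5 downstream, Miwi2-/- coverage at 2, and no sequence crosses the dashed line.

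Few sequences lay across the annotated ends of the 3' UTR. A single WT sequence began before the stop codon, by 8 nt. No sequence of either liver library crossed the annotated end at position 1393. In both libraries the last sequence of the 3' UTR ended at position 1391, 2 nt before it, and WT coverage resumed at position 1443. The 51 uncovered bases between are fewer than in the longest gap within the 3' UTR. Both sequences that end at position 1391 carry 1 mismatch to the genome. A sequence with more than 1 mismatch could not be placed, so ends at this border are those of genome-matched sequences only.

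The letters AATAAA, the common poly(A) signal, occur on the plus strand at positions 879 and 1356 of the 3' UTR and at 7933 downstream, where 1356 is 37 nt before the annotated end. They stood in 1 of 157 WT sequences (0.637%, against 5.44% of the 4244 WT liver sequences assigned to a cluster). In Miwi2-/- liver they stood in 2 of 16 sequences (12.5%, against 5.42% of the 554 assigned). More of the WT Errfi1 sequences than of the other clusters lie downstream, where the letters occur only at 7933, so the WT shares are not a like comparison. The Errfi1 sequences that hold them are shown with the letters in capitals. The WT and the first Miwi2-/- sequence lie over the signal at 1356 (chr4:150242955-150242978 and chr4:150242956-150242978) and differ in length by a single base at the 5' end, while the other lies over the signal at 879 (chr4:150242481-150242504).
WT liver, positions 1347 to 1370: tttcattttAATAAAgttatatta
Miwi2-/- liver, positions 1348 to 1370: ttcattttAATAAAgttatatta
Miwi2-/- liver, positions 873 to 896: agacttAATAAAggacaacacgaa

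The letters ATTTA, the core of AU-rich elements that shorten the life of many inducible mRNAs, occur at positions 198, 1213, 1310 and 1374 of the 3' UTR. Downstream they occur at 5389, 5880 and 7960. They stood in 10 of 157 WT sequences (6.37%, against 4.43% of those assigned), all in the 3' UTR. In Miwi2-/- liver they stood in 1 of 16 (6.25%, against 1.99% of those assigned). None of 1738 mature mouse miRNAs of RefSeq shared a run of 16 bases with the region. A motif match is a description of letters only.

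Some ends were used in both liver libraries. An identical sequence was found once, which is 0.637% of the WT and 6.25% of the Miwi2-/- sequences. Both libraries used 4 of the same 5' ends, at positions 1, 57, 78 and 333, that is 2.65% of the 151 WT ends and 4 of the 16 Miwi2-/- ends, and 4 of the same 3' ends. Shared ends were not counted for other liver clusters, so whether these numbers are usual for a cluster was not tested. Miwi2-/- coverage never exceeded 2 sequences, and it reached 22.6% of the bases of the 3' UTR.

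WT liver sequences of the 3' UTR and of the downstream stretch differed in their first base. In the 3' UTR 40 of 70 began with U, 57.1% (45.5% to 68.1%), whereas the 3' UTR itself is 32.2% U, a difference of 24.9 percentage points. A first G was found in 7.14%, against 22.3% of the bases, a difference of -15.2 points. Downstream, C was the most frequent first base with 35.6% (26.4% to 46.1%), and U stood at 26.4% (18.3% to 36.6%). The downstream stretch is 24.2% C and 24.2% U, and its GC content is 48.9%, against 40.3% in the 3' UTR.

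Thus neither the U nor the C intervals of the 2 stretches overlap, with C at 12.9% (6.91% to 22.7%) in the 3' UTR. A first A was found in 22.9% of the 3' UTR and 19.5% of the downstream sequences. Within each length class the share of U was again the higher in the 3' UTR, but with intervals that overlap, with 62.8% (27 of 43) against 31.4% (11 of 35) at 21 to 25 nt, and 10 of 20 against 10 of 41 at 27 nt or longer. Without a mismatch to the genome, U led 67.7% of the 3' UTR and 36.4% of the downstream sequences, again with overlapping intervals.

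**Figure D4:**
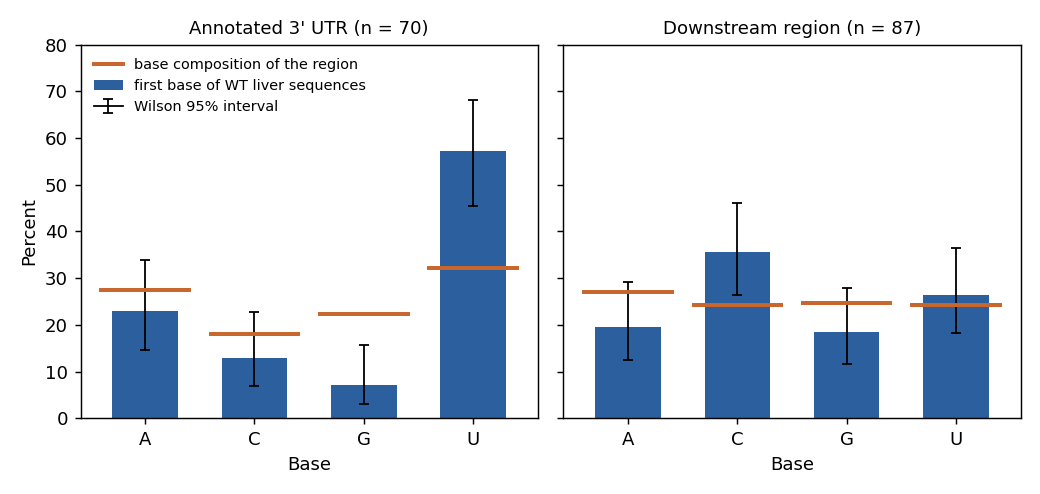
Percent of WT liver Errfi1 sequences beginning with each base (bars, with Wilson 95% intervals) in the annotated 3' UTR (70 sequences) and the downstream stretch (87 sequences), beside the base composition of the same stretch (orange lines). U reaches 57.1% in the 3' UTR over a composition of 32.2%, and C reaches 35.6% downstream over 24.2%.

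In the other WT liver clusters the first bases lay closer together. There U led 38.2% of the annotated (36.6% to 39.8%) and 31.1% of the downstream sequences, and 34.9% of the annotated ones without Vmp1. C led 15.2% and 28.2%. The 3' UTR of Errfi1 thus lay above the pool of the other clusters in U, with intervals that do not overlap. Vmp1 stood higher, with a first U in 88.0% of its sequences, and other 3' UTRs were not compared singly. Over the whole cluster, a first A in 33 of 157 sequences was at rank 31 of 34 from the highest, below the median of 36.0% and the 44.5% of Scd1, and a first U in 40.1% was at rank 8. The 16 Miwi2-/- sequences began with A in 6, C in 5, U in 5 and G in 0, too few to order the bases.

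Lengths were shorter in the 3' UTR than downstream, but with intervals that overlap. Over the whole WT cluster the median was 25 nt (17 to 33 nt) and 23 nt the most frequent length, with 22 sequences. In the 3' UTR the median was 24 nt and 61.4% (49.7% to 72.0%) were of 21 to 25 nt, close to the length of miRNAs, against 26 nt and 40.2% (30.6% to 50.7%) downstream. Sequences of 27 nt or longer, the range of many piRNAs, made up 28.6% (19.3% to 40.1%) in the 3' UTR and 47.1% (37.0% to 57.5%) downstream, where 28 nt was the most frequent length. In the other WT liver clusters the long class made up 29.1% and 34.4%.

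**Figure D5:**
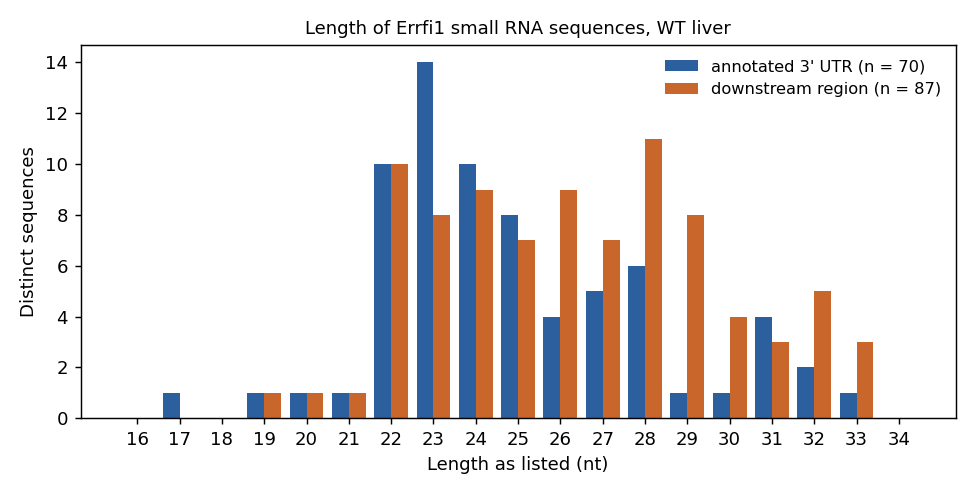
Number of distinct WT liver Errfi1 sequences of each length in nt, for the annotated 3' UTR (blue, 70 sequences) and the downstream stretch (orange, 87 sequences). The 3' UTR peaks at 23 nt with 14 sequences, and downstream the highest bar is 28 nt with 11.

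The whole Errfi1 cluster had 38.9% of its sequences at 27 nt or longer, rank 10 of 34 clusters, and 49.7% at 21 to 25 nt, rank 22. In Miwi2-/- liver the median was 24 nt (19 to 27 nt), with 9 of 16 at 21 to 25 nt and 3 at 27 nt or longer. Of the latter 1 was left in this class without mismatched last A's and 0 without any last A. The labels give a gel window of about 24 to 31 nt for the RNA that was sequenced, and the methods name a wider one. Of the WT sequences 49 were shorter than the window in the labels and 11 longer, and of the Miwi2-/- sequences 7 were shorter. Fewer lie outside the wider window of the methods, whose upper limit is above the longest sequence, of 33 nt. At least the sequences of 20 nt or shorter, 5 in WT and 1 in Miwi2-/- liver, lie below that window.

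Most of the sequences ended in A. In WT liver 133 of 157 did, 84.7% (78.3% to 89.5%), made up of 90 whose last A does not match the genome (57.3%) and 43 whose A does. A further 12 ended in ATC, so that 145 (92.4%) ended in either. The group at positions 2582 to 2624 and the trio at position 2562, printed above, show both kinds of end. The mismatched A was found in 51.4% of the 3' UTR and 62.1% of the downstream sequences, with intervals that overlap, and ATC in 2 of 70 and 10 of 87.

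Mismatches to the genome sat almost wholly at this end. Of 104 WT sequences with a mismatch, 103 had it in the last 3 bases and 0 at the first base. Of the 16 Miwi2-/- sequences 11 ended in A, 7 of them mismatched, and 13 ended in A or ATC. Over all WT liver clusters on the plus strand, 83.9% of the sequences with a mismatch had it as a last A and 1.08% as a first T. In clusters on the minus strand 71.1% had a first T and 1.44% a last A, since all sequences are listed in the direction of the plus strand.

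The share ending in a mismatched A in Errfi1, 57.3%, was at rank 8 of 34 clusters, above the median of 47.1% and the 41.6% of Scd1. The 3' adapter of the small RNA kit named in the labels begins with the letters ATC. How many of the terminal bases are of the RNA and how many of the adapter was not tested, and lengths as listed include them. With any last A left out, the median length of the WT cluster was 24 nt.

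Some genes of the signalling pathway in which Errfi1 acts had a cluster of their own. Of 60 genes chosen for this pathway, 6 (10%) had a liver cluster region, against 2.22% of 21896 protein-coding genes, and 4 (6.67%) had a spleen region, against 1.57%. The list was drawn up with earlier results known and includes Errfi1 itself, so nothing particular to it follows. Among 4 receptors, Egfr, which Errfi1 inhibits, had 13 sequences in WT and 2 in Miwi2-/- liver. None of the 8 ErbB ligands had a region in either tissue.

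Among 17 adaptors and kinases, Stat3, a transcription factor activated by cytokine and EGF receptors, had 7 sequences in WT and 2 in Miwi2-/- liver. Of 16 feedback inhibitors, 2 had a liver region, Errfi1 and Lrig1, and 3 had a spleen region. The latter were Socs3, an inhibitor of cytokine signalling with 10 WT spleen sequences, its relative Socs5 with 5, and Dusp6, an ERK phosphatase, with 5. Each had 0 in Miwi2-/- spleen, whose list held 378 sequences against 2634 in WT spleen. With so few WT sequences and the shorter list, a 0 is not read as a loss. Of 15 immediate early genes Zfp36, whose protein binds AU-rich elements and destabilises mRNA, had 11 in WT and 2 in Miwi2-/- liver. Ier2, a gene induced early by growth factors, had 13 sequences in WT and 1 in Miwi2-/- spleen. None of these clusters came near the 157 sequences of Errfi1, the only pathway gene with more than 13.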

How the data were processed

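For each library the authors deposited a list of distinct small RNA sequences without counts or positions, and for WT liver and WT spleen the coordinates of 3' UTR cluster regions (mm9). Per the labels and methods, base calls came from CASAVA 1.8, adapters were removed with cutadapt, identical reads were collapsed, known noncoding RNAs were removed with Bowtie, unique alignments with at most 1 mismatch were kept and bedtools gave overlaps. Regions were drawn from the WT libraries and applied to both genotypes.

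Every listed sequence was aligned anew to NCBIM37 on both strands with at most 1 mismatch (numba 0.67.0). Each had a single best placement, and 100% of 1000 sequences simulated from chromosome 19 were placed. The latter share includes those with a better placement or many equal ones elsewhere, so it is no check of single placement. A sequence belonged to a stretch when at least 50% of it lay inside. Library totals of uniquely aligned sequences were read from the study's supplementary file. Shares have Wilson 95% intervals (scipy 1.17.1). With 1 library per tissue and genotype no test was made. Members, gene lists and ranking rules were chosen with earlier results of these data known. Genes named by rule were Errfi1, Scd1 and Vmp1, pathway genes with at least 5 sequences in a list, and at most 3 markers per list. Lrig1, Park7, Ppara, Noct and the hepatocyte markers other than Alb, Ahsg and Hnf4a were named after their values were seen. Alternatives covered mismatches, the annotated 3' UTR alone, placements, terminal bases, length classes, the leading 5' end, hot spot coverage and library totals.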

Additional observations from a re-analysis of the deposited data

How the results depend on the processing

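Of 125 values recomputed under an alternative, 99 stayed within 1.5 times the count or inside the Wilson interval, and 26 moved. Without sequences that carry a mismatch, WT liver held 53 sequences (2.95% of the list), 58.5% of them in the annotated 3' UTR, 30.2% of 27 nt or longer, 54.7% beginning with U and 77.4% ending in A, while Miwi2-/- liver held 6 and the libraries shared 2 5' ends. With the annotated 3' UTR alone, WT liver held 70 sequences (1.64% of the list), 61.4% of 21 to 25 nt, 28.6% of 27 nt or longer and 57.1% beginning with U. Of the uniquely aligned distinct sequences of the library, Errfi1 made up 0.243% in WT and 0.120% in Miwi2-/- liver. With mismatched last A's left out, 44.6% still ended in A, and with any last A left out 31.2% were of 27 nt or longer. At 21 to 25 nt alone, 48.7% began with U. Runs covered by at least 5 sequences held 17.2% of the WT sequences, and those covered by at least 3, a minimum added after seeing the data along with the alternatives on single placements and on mismatches in the last 3 bases, held 58.6%. Some alternatives keep fewer sequences, while others change the bases counted, the minimum coverage or the denominator. The cause of these moves was not tested. No paired analysis was possible because each group is 1 library. The lists give distinct sequences only, so abundance, and in Miwi2-/- liver any order among 16 sequences, was not detectable at this depth. In WT liver 8 members, and in Miwi2-/- liver 1, had a second placement with more mismatches.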
